A study of Drosophila melanogaster with 2 samples.

Results

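The genes described here encode the factors that start, drive and end protein synthesis in Drosophila melanogaster. They were taken from the Ensembl annotation as all genes whose symbol begins with eIF (initiation), eEF (elongation) or eRF (release), which gave 54 of 13945 protein-coding genes on the 6 chromosome arms. The data are lists of genomic regions enriched for Meics, a zinc-finger protein of the meiotic central spindle. They were obtained by ChIP-seq with an anti-GFP antibody from a transgenic fly line that stably expresses Meics with GFP at its C-terminal end. The material was whole embryos of 0 to 24 hours with both sexes pooled, so a region is an average over all embryonic cell types and stages. There was 1 group of 2 biological replicates, numbered 1 and 3, and no control sample or untagged line was analysed here. Read depth is unknown.

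Translation begins when eIF4E binds the cap of an mRNA and the scaffold eIF4G brings in the helicase eIF4A. The small ribosomal subunit arrives with eIF3, eIF1, eIF1A, eIF5 and the initiator tRNA carried by eIF2, whose GTP is renewed by eIF2B. After subunit joining by eIF5B, eEF1 and eEF2 drive elongation, and eRF1 and eRF3 release the finished chain. These genes are used in nearly every cell, but Drosophila also has paralogues known for testis-enriched expression or function. Of these, eIF4E3, eIF4E4, eIF4E5, eIF4E7, eIF4G2, eIF3d2, eIF3f2 and eIF3g2 were treated as the 8 germline paralogues, and the other 46 genes as general factors. There is no adult testis in an embryo, and expression of the genes was not measured here.

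A gene was counted as having a summit when the summit of a region lay within 500 bp of any of its transcription start sites (TSSs). The main list holds the 7689 peaks that passed the authors' IDR cutoff; IDR, the irreproducible discovery rate, scores whether a region keeps its rank when the experiment is repeated. The lists of the single replicates hold 30000 regions each, peaks and background together, and were read by rank on the authors' signal value, with 1 the strongest. Signal values of different lists are on different scales and no level was compared between them. All comparisons of counts below are descriptions. With 1 group and no control, no test across samples was possible, and none was run on the gene lists, whose members and subgroups were chosen with earlier results of these data known.

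An IDR summit was present at 21 of the 54 translation factor genes (38.9%, Wilson 95% interval 27.0 to 52.2), beside 26.1% of all protein-coding genes. In the 7689 strongest regions of each replicate alone, the share was 38.0% ± 1.34 (SD, n = 2) for the translation factors and 26.5% ± 0.424 (SD, n = 2) for all coding genes. The general factors held 20 of the 21, which is 43.5% of 46 (interval 30.2 to 57.8). The germline paralogues held 1 of 8 (12.5%, interval 2.24 to 47.1). The intervals cover counting error only, and the interval of the paralogues includes the share of all coding genes.

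**Figure D1:**
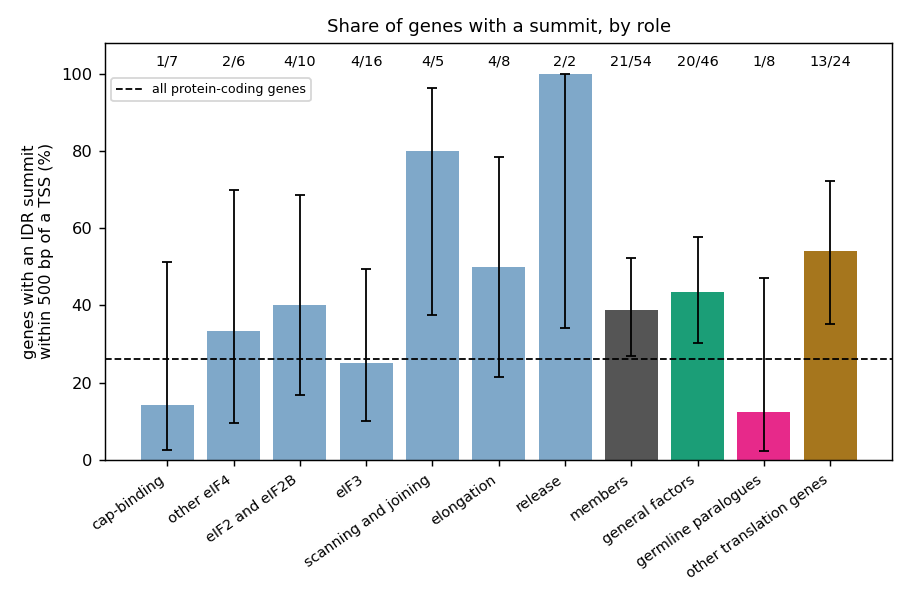
Percentage of genes with an IDR summit within 500 bp of a TSS, for 7 roles in translation, for all 54 genes, for the general and germline classes and for 24 other translation genes; bars start at 0, error bars are Wilson 95% intervals, the numbers above are genes with a summit over genes in the group, and the dashed line is the 26.1% of all protein-coding genes. Among the 7 roles, the release factors (2 of 2) and the scanning and joining factors (4 of 5) had the highest shares and the cap-binding proteins (1 of 7) the lowest, with wide intervals throughout.

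The sequences at 7 of these summits are shown because they cover 3 of the strongest peaks (eIF4EHP, eEF1gamma and eIF1), the summits outside exons that hold TATCGATA (eEF1gamma, eIF1 and eIF3a), both release factors, and the only germline paralogue with a summit. Each is the part of the window from 50 bp before to 50 bp after the summit that lies outside annotated exons, taken from the RefSeq copy of the dm6 assembly and written along the gene's strand. Capitals mark matches on either strand to TATCGATA, known as the DREF element, to CGATA, its shorter core, or to TATAAA, the TATA box; a match is a description and not a site. The stretches are chr3R:24109112-24109212 on the minus strand for eIF4EHP, chr3R:29220104-29220171 on the plus strand for eEF1gamma, chr3L:3222967-3223067 on the plus strand for eIF1 and chr3R:4433896-4433964 on the minus strand for eIF3a. For eRF1 it is chr3L:20348222-20348322 and for eRF3 chr2L:12434333-12434433, both on the plus strand, and for eIF4G2 it is chr3R:23819272-23819372 on the minus strand.
eIF4EHP: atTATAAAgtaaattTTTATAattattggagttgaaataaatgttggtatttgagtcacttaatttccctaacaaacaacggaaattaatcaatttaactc
eEF1gamma: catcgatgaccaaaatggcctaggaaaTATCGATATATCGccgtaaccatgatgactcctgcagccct
eIF1: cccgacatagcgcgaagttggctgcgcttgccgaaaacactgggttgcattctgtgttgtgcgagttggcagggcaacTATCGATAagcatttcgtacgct
eIF3a: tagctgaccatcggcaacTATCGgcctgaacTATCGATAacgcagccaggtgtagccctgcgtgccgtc
eRF1: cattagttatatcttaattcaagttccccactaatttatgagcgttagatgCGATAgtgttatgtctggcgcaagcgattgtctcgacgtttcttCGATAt
eRF3: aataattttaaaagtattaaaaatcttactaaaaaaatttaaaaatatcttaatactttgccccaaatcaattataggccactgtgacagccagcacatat
eIF4G2: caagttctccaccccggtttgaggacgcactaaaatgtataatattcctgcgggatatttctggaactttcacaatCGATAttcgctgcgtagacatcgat

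Among the factors that act around start-codon selection and subunit joining, 4 of 5 had a summit (80.0%), beside 26.1% of all coding genes. The strongest peak of all 54 genes was in this group. It belonged to eIF6, which keeps the ribosomal subunits apart until the large subunit is mature. The eIF6 peak had a signal value of 3040.44, 11.6 times the median of the IDR list, and ranked 53 of 7689. Its summit was 102 bp upstream of the TSS in the IDR list and in replicate 1 and 107 bp upstream in replicate 3, at ranks 53 and 54. No other coding gene starts within 500 bp of eIF6.

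The eIF1 gene, for the factor that guards start-codon recognition, had summits 324 bp upstream (signal 1370.87, rank 298) and 112 bp upstream (654.742, rank 1085). The stronger had a signal of 589.752 in replicate 1 and 793.355 in replicate 3, at ranks 295 and 306. It was 57 bp from the TSS of RpL28, a ribosomal protein gene, and it is the one that holds TATCGATA in the sequence above. The weaker summit was nearest to eIF1 itself. The eIF5B gene, for the GTPase of subunit joining, had a summit 136 bp upstream of the nearest of its own TSSs (385.699, rank 2354), with ranks of 1883 and 2958 in replicates 1 and 3. Its signal there was 190.201 and 193.858. At eIF1A the peak was weak (217.586, rank 4825) and was 84 bp from the TSS of Vps39, closer than to eIF1A. The replicates disagreed on its place, with the strongest region 104 bp upstream of eIF1A in replicate 1 (103.283, rank 4197) and 224 bp upstream in replicate 3 (110.185, rank 5996). The member of this group without an IDR summit was eIF5, the GTPase-activating protein of eIF2. It had a region only in the list of replicate 3, at rank 11992.

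Elongation factor genes had an IDR summit in 4 of 8 cases. The highest value was at eEF1gamma, a subunit of the exchange factor that recharges eEF1A with GTP. Its signal was 806.38 in replicate 1 and 1044.4 in replicate 3, at ranks 158 and 188, and 1842.09 in the IDR list, at rank 167. The summit sat 18 bp upstream of the TSS, within the TATCGATA-bearing stretch printed above. The major eEF1A gene, eEF1alpha1, followed with 792.826 (rank 808), and with 343.407 and 454.118 in replicates 1 and 3 (ranks 773 and 851). A second, weaker summit (260.486, rank 3867) lay at another TSS of the gene, 48 bp from that of ERp60. The paralogue eEF1alpha2 had no region in either replicate list, the nearest IDR summit being 4518 bp away.

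The translocase gene eEF2 had a summit 9 bp upstream of the nearer of its 2 TSSs, inside the 5′ UTR (564.428, rank 1338). The gene eEF5, whose product carries hypusine and was formerly named eIF5A, had one 12 bp downstream (548.481, rank 1401). In replicates 1 and 3, eEF2 had signals of 221.892 and 350.824 at ranks 1483 and 1256. The values of eEF5 were 278.87 and 282.575 at ranks 1053 and 1691. The other subunits of the exchange factor, eEF1beta and eEF1delta, had weak regions in both replicate lists, at ranks 13065 and 16108 for eEF1beta and 15662 and 27804 for eEF1delta. In replicate 1 these lay 278 and 433 bp upstream and were nearer to the TSSs of Psi (230 bp) and ova (382 bp). In replicate 3 they lay 62 bp downstream of eEF1beta and 80 bp upstream of eEF1delta. The selenocysteine elongation factor eEFSec had no region in either list. Regions within 500 bp of the 3 subunit genes therefore spread from rank 158 to rank 15662 within the list of replicate 1, and those at eEF1beta and eEF1delta were nearer to other genes.

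Both of the 2 release factor genes had a summit, beside 26.1% of all coding genes. At eRF3, the GTPase partner, the strongest IDR summit was 69 bp upstream (538.723, rank 1438), and a second, weaker one (147.9, rank 7496) lay 317 bp upstream of another of its TSSs. At eRF1, which reads the stop codon, the summit was 83 bp upstream (313.498, rank 3109). Replicate 1 gave eRF3 a signal of 301.828 and replicate 3 244.231, at ranks 958 and 2107. For eRF1 the signals were 148.212 and 167.053, at ranks 2682 and 3604, so both genes stood among the 7689 strongest regions of each.

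The cap-binding proteins showed a single strong peak. It lay at eIF4EHP, which binds the cap without recruiting eIF4G and represses mRNAs such as caudal in the embryo. The eIF4EHP peak spanned chr3R:24108901-24109412, with a signal of 2432.09 at rank 83, and ranked 72 and 91 in replicates 1 and 3. Its summit was 202 bp upstream of eIF4EHP and 174 bp from the TSS of CG18428, so it lay between the starts of both genes, in the AT-rich stretch printed first above. The general cap-binding gene eIF4E1 had no IDR summit. Its strongest regions were weak, with a signal of 48.8034 at rank 9920 in replicate 1 and 72.303 at rank 9641 in replicate 3, within 10 bp of a TSS in both. At eIF4E6 a region was listed only in replicate 1, at rank 28187.

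Of the other eIF4 genes, eIF4A, the helicase, had 2 weak IDR summits. They lay 30 bp upstream of one TSS (194.785, rank 5485) and 99 bp upstream of another (166.887, rank 6556), and each replicate listed regions at both TSSs. Replicate 1 had its strongest at the second (121.78, rank 3431) and replicate 3 at the first (101.125, rank 6629). A further IDR summit, 634 bp upstream of eIF4A and outside the window, was 112 bp from the TSS of chic, the profilin gene. No region of either replicate list was within 500 bp of eIF4G1, the general scaffold, on chromosome 4, or of eIF4H2. The RNA-binding helicase partners eIF4B and eIF4H1 each had a weak region in a single replicate.

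Beside 26.1% of all coding genes, 4 of 10 genes (40.0%) for the factors that deliver the initiator tRNA and recharge them had an IDR summit. They were eIF2beta (343.145, rank 2752), the eIF2B subunit gene eIF2Bdelta (168.473, rank 6495), and eIF2D (412.056, rank 2153) and eIF2A (212.616, rank 4955), which in mammals can bring tRNAs to the ribosome outside the usual eIF2 route. In replicates 1 and 3, eIF2D had signals of 166.392 and 248.058 (ranks 2289 and 2050) and eIF2beta 122.019 and 203.775 (ranks 3421 and 2750). The lower pair was less even, with eIF2A at ranks 7607 and 4219 and eIF2Bdelta at 7485 and 6424. The eIF2beta summit was 265 bp upstream of its TSS in the IDR list, and 273 and 281 bp upstream in replicates 1 and 3. The eIF2Bdelta summit was 12 bp from the TSS of the neighbouring gene roh.

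The GTP-binding subunit eIF2gamma, which shares a TSS with Su(var)3-9, and the phosphorylated subunit eIF2alpha had no IDR summit. Of the 5 eIF2B subunit genes, eIF2Bdelta alone had one. At eIF2Bbeta a very strong peak lay just outside the window, with its summit 682 bp upstream, a signal of 6932.78 and rank 8 of the IDR list. Replicates 1 and 3 placed it at 678 and 683 bp and at ranks 10 and 7. This summit was 37 bp upstream of Ugalt, a divergent neighbour that encodes a UDP-galactose transporter.

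The eIF3 complex holds the small subunit and the mRNA together. Beside 26.1% of all coding genes, 4 of its 16 genes (25.0%) had an IDR summit. Of the 13 that are not germline paralogues, 4 had one (30.8%). They were eIF3h (732.515, rank 933), eIF3a (455.24, rank 1828), eIF3m (343.99, rank 2744) and eIF3b (199.855, rank 5329). In replicates 1 and 3, eIF3h had signals of 314.971 and 425.477 (ranks 899 and 942), eIF3a 157.389 and 291.649 (ranks 2467 and 1603) and eIF3m 179.159 and 161.374 (ranks 2061 and 3779). The eIF3a summit was 50 bp upstream and the eIF3m summit 61 bp downstream. At eIF3h the stronger summit was in an intron, 274 bp downstream of the TSS, and a second (333.625, rank 2836) was 18 bp downstream. The eIF3b peak rests on replicate 3, where it ranked 6399, because no region of the replicate 1 list overlapped it by 1 bp or more. Neither replicate listed a region for 8 of the 16 eIF3 genes, beside 45.4% of all coding genes with a region in neither list. These 8 eIF3 genes included eIF3e, eIF3g1, eIF3i, eIF3j and eIF3l besides the germline paralogues.

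The germline paralogues were set beside the general gene of the same factor. The only paralogue with an IDR summit was eIF4G2, the male germline form of the eIF4G scaffold, also known as off-schedule. Its peak spanned chr3R:23819092-23819551, with the summit 85 bp upstream and a signal of 150.519 at rank 7362, near the lower end of the list (lowest signal 144.418). The summit was 85 bp upstream in replicate 1 (72.7903, rank 6370) and 91 bp upstream in replicate 3 (68.266, rank 10248). Replicate 3 alone therefore did not place it among its 7689 strongest regions. A TSS of eIF4G2 coincides with one of CG33111 on the annotation, and the peak cannot be assigned to either. The general gene eIF4G1 had no region in either replicate list.

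In the cap-binding family, eIF4E3 and eIF4E7 had no region in either replicate list, eIF4E4 had weak ones in both (ranks 24065 and 18335), and eIF4E5 had a weak one in replicate 1 (rank 23643, 490 bp downstream). The general gene eIF4E1 ranked above these in both replicates, without reaching the IDR list. For the eIF3 subunits d, f and g, no region was found at any of the paralogues eIF3d2, eIF3f2 and eIF3g2. The general genes eIF3d1 and eIF3f1 had a region in replicate 1 only, at ranks 9715 and 21495, and eIF3g1 had none. Of the 5 general counterparts, none had an IDR summit. The lower share of the germline class was therefore a contrast with the general factors as a whole and not with the genes they are paired with, and the difference between the classes was not tested.

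**Figure D2:**
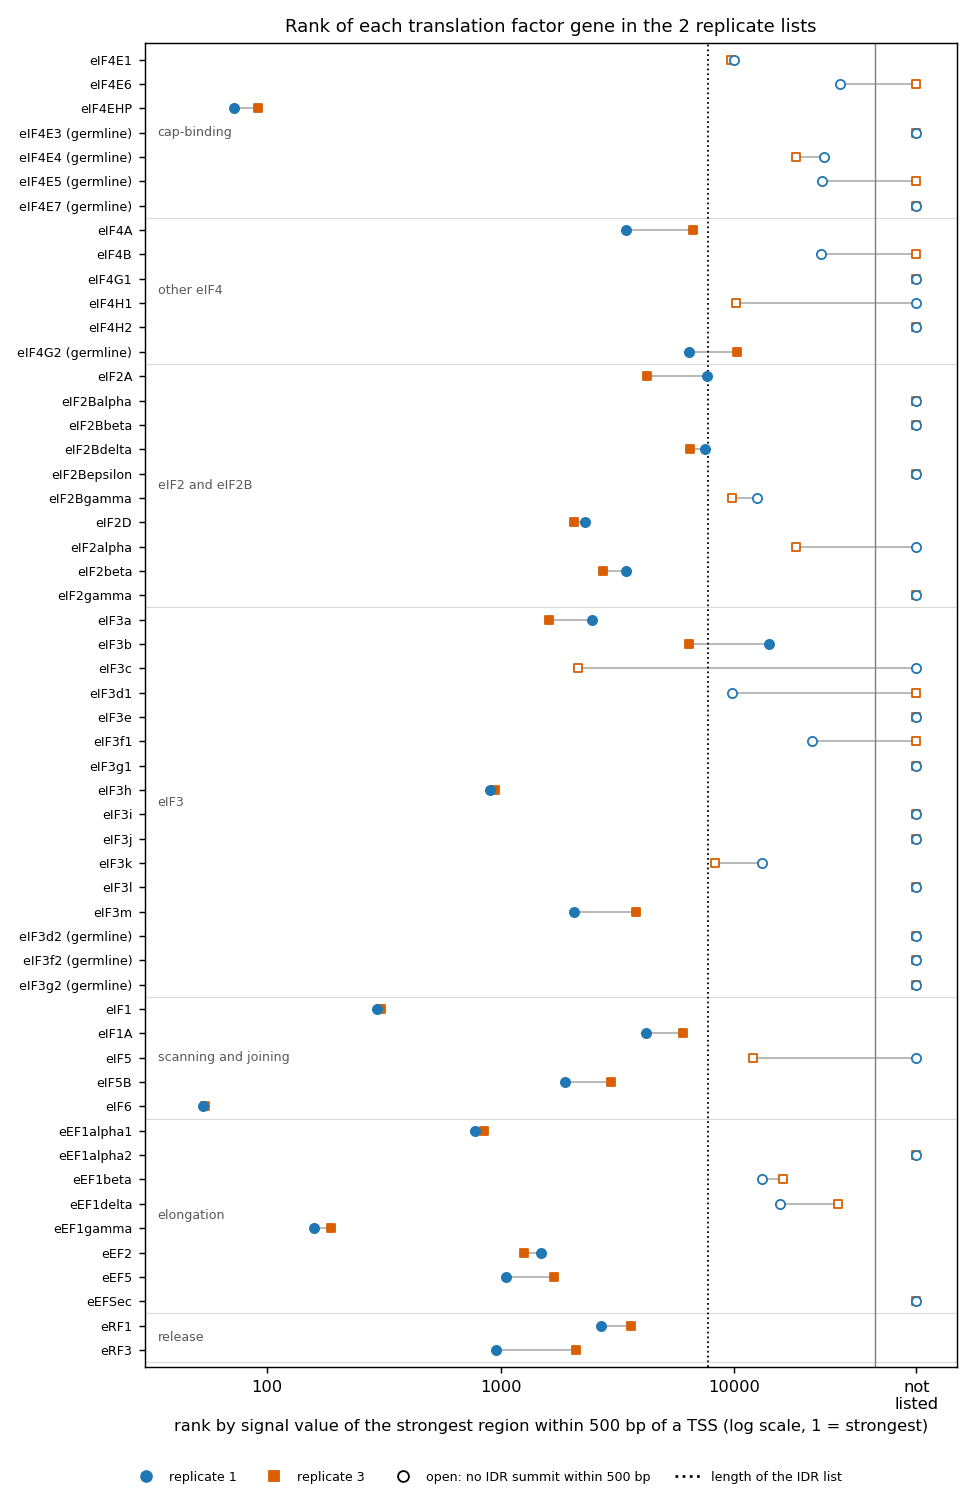
Rank by signal value (log scale, 1 is the strongest) of the strongest region within 500 bp of a TSS of each of the 54 genes, in the list of replicate 1 (circles) and replicate 3 (squares), grouped by role; filled symbols are genes with an IDR summit, the dotted line is at rank 7689, and genes without a region are set at the right edge. The filled symbols lie left of the dotted line in both replicates except eIF3b in replicate 1 and eIF4G2 in replicate 3, and eIF3c stands far left in replicate 3 alone.

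The lists of the single replicates, which include weaker regions, covered more genes, among the members and among all coding genes. A region was listed within 500 bp of a TSS at 32 of the 54 genes in replicate 1 (59.3%), beside 45.9% of all coding genes, and at 31 in replicate 3 (57.4%), beside 48.5%. In both lists 27 genes had one, beside 39.8% of all coding genes. Among the 7689 strongest regions of both replicates it was 19 (35.2%), beside 22.8%, and all 19 were general factors. The 21 genes with an IDR summit all had a region in both lists and are part of the 27. Of the 33 genes without an IDR summit, 6 had a region in both replicate lists, 5 in replicate 1 only, 4 in replicate 3 only and 18 in neither. This split was not made over all coding genes without an IDR summit. The weaker regions therefore cannot be called more frequent at the members. Those 18 are 33.3% of the 54 genes, beside 45.4% of all coding genes with a region in neither list. The 6 with a region in both were eEF1beta, eEF1delta, eIF2Bgamma, eIF3k, eIF4E1 and eIF4E4, and none of them was among the 7689 strongest of both. At eEF1beta and eEF1delta the region of replicate 1 was nearer to another gene.

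Where a summit was present, the replicates ranked the genes alike. Over the 21 genes, the Spearman correlation of the ranks in the replicate lists was 0.913, a description over genes that share the same libraries and were selected for reproducible rank. Each list gave its strongest region in the window, which was not always the same region. At eIF3b the summits of replicates 1 and 3 were at -469 and 67 bp, and at eIF4A at -112 and -35 bp of different TSSs. In 20 of the 21 genes the strongest IDR peak overlapped a region of both lists. The strongest summits of the replicates fell within 20 bp of each other at 14 of the 21. These counts were not made over all coding genes with a summit, so the agreement cannot be called particular to the members. Members with a summit had a median signal of 412.056, and 15 of 21 were above the list median of 261.956. That median covers all peaks, while each gene was taken at its strongest. Of all coding genes, 26.1% had a summit in the whole list and 16.5% in its upper part, so most coding genes with a summit also passed this mark. The members' median rank was 2153, beside 2758 over the 3645 coding genes with a summit, each taken at its strongest peak.

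Most of these summits lay close to a TSS of the gene and upstream of it. Of the 21, 17 were upstream of the nearest TSS and 4 downstream, and the range ran from -324 bp at eIF1 to 274 bp at eIF3h. At eEF1alpha1, eEF2, eIF2A, eIF4A and eIF5B the upstream summit lay inside the gene, before an internal TSS. The median position was -69 bp, and -84.5 and -48 bp in the strongest regions of replicates 1 and 3. Over all coding genes with a summit the median was -130 bp and 84.5% were upstream. Within 150 bp of a TSS were 17 of the 21 (81.0%), beside 51.3% of all coding genes with a summit. Each distance is to the nearest of all TSSs of a gene, so genes with more TSSs tend to have shorter distances. Of the 21 genes, 15 had 2 or more TSSs, beside 1634 of the 3645 coding genes with a summit. The part of TSS number in these positions was not tested. The strongest summits fell outside the gene in 12 cases, in a 5′ UTR in 7 and in an intron in 2, with none in a coding exon.

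**Figure D3:**
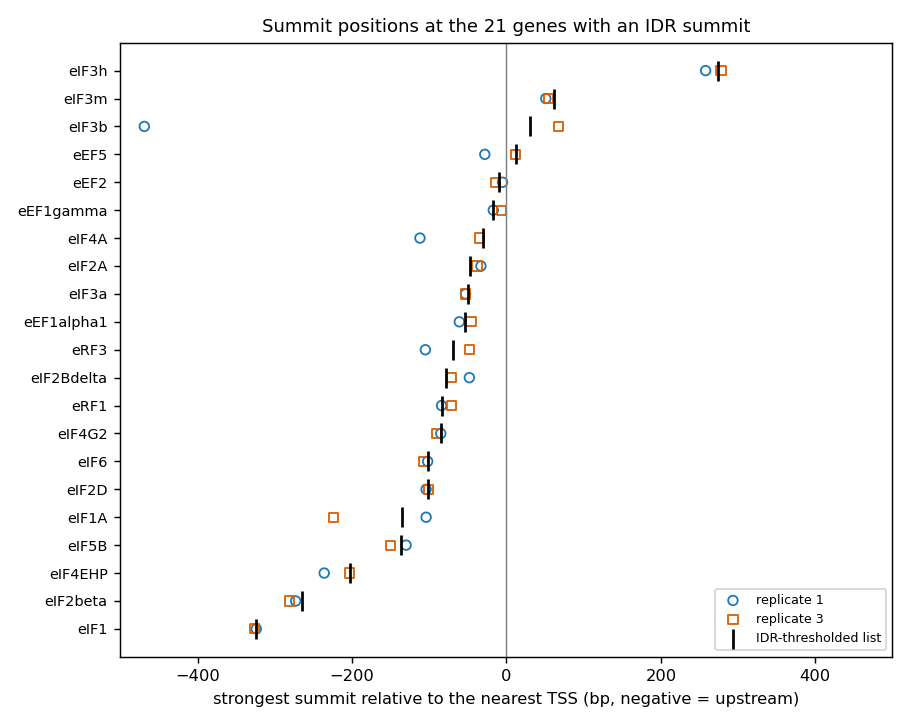
Position of the strongest summit relative to the nearest TSS of each of the 21 genes with an IDR summit, in bp with negative values upstream, in the IDR list (bars), replicate 1 (circles) and replicate 3 (squares). Most symbols coincide between the lists and lie between -150 and 0 bp, and eIF3b in replicate 1 (-469 bp) is far from the others.

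The genes differed in the number of TSSs and in their neighbours, and the summits followed both. Of 22 members with more than 1 annotated TSS, 15 had a summit (68.2%), and of 32 with 1 TSS it was 6 (18.8%). Over all coding genes the shares were 44.2% and 19.6%. A coding TSS of another gene lay within 500 bp of 23 members, 13 of which had a summit (56.5%), and of the 31 members without such a neighbour 8 had one (25.8%). Over all coding genes these shares were 43.4% and 18.4%. At 5 of the 21 genes, the strongest summit was nearer to a neighbour than to the member. These were eIF1 (RpL28), eIF1A (Vps39), eIF2Bdelta (roh), eIF3a (CG1074) and eIF4EHP (CG18428).

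Translation factor genes had several TSSs more often than other genes (40.7% beside 26.5% of all coding genes) and a close neighbour more often (42.6% beside 30.9%). When all coding genes were weighted to the members' mix of both features, their share with a summit was 31.6%, beside the 38.9% of the members. For the general factors the weighted share was 32.9%, beside 43.5%. For the germline paralogues, 7 of which have 1 TSS, it was 24.1%, beside 12.5%. This weighting was chosen after the data were seen. The part of promoter architecture in the remaining differences was not tested further.

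**Figure D4:**
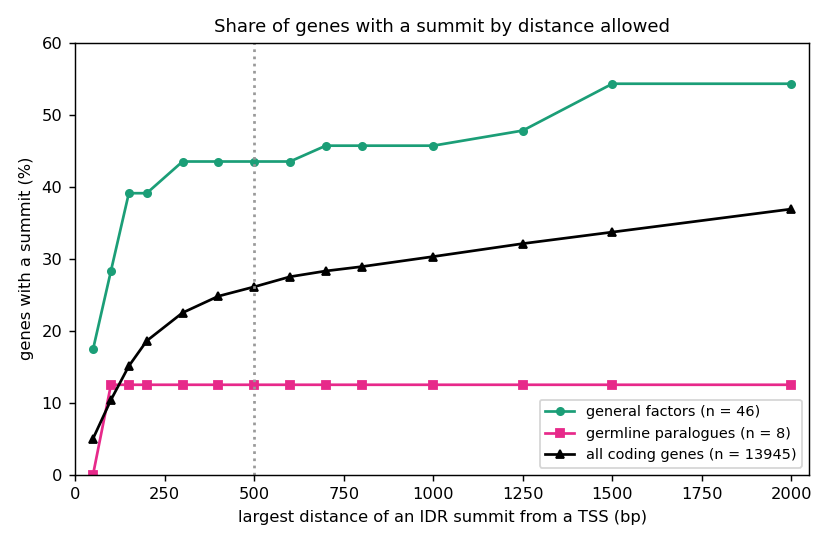
Percentage of the 46 general factors (circles), the 8 germline paralogues (squares) and all 13945 coding genes (triangles) with an IDR summit, against the largest distance from a TSS allowed, in bp; the dotted line is the 500 bp used. The general factors reached 39.1% at 150 bp and 43.5% at 300 bp and then stayed level to 600 bp, the paralogues stayed at 12.5% from 100 bp on, and all coding genes rose from 15.1% at 150 bp to 26.1% at 500 bp.

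The sequence under the summits was searched for motifs on both strands, from 50 bp before to 50 bp after the summit, over the 27 IDR summits within 500 bp of a member's TSS and over all 3307 IDR summits at coding promoters. TATCGATA was in 4 of the 27 windows (14.8%), beside 3.02% of all promoter summits. The windows were those of eEF1gamma, eIF1, eIF2A and eIF3a. The core CGATA, which TATCGATA contains, was in 11 (40.7%), beside 19.5%. TATAAA was in 2 (7.41%), at eIF4EHP and eIF6, beside 20.7%. The M1BP motif GGTCACACT and the E-box CACGTG were in none of the 27 windows, beside 1.36% and 0.998% of all promoter summits. The words GTGACGAA and GTAACGAA were in none either, beside 1.18% and 0.847%.

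The GC content of the windows was higher at the members. It had a median of 45.5% over the 27 windows (22.8 to 59.4) and 34.7% over all promoter summits. Base composition moves the chance of each motif, and its part in these shares was not tested. The polypyrimidine initiator of translation genes was sought on the gene strand as CCTTTC or CCTTTT or TCTTTC or TCTTTT starting exactly 2 bp or 1 bp before an annotated TSS. It was at 0 of the 54 genes at both positions, beside 0.143% and 0.186% of all coding genes. The same scan found it at 1 and 2 of 88 genes with symbols starting RpL or RpS, although ribosomal protein genes are the known carriers of this initiator. This control was added after the data were seen. Since the scan missed nearly all of the known carriers, the 0 says nothing about whether the translation factor genes have the initiator, and why the scan missed them was not tested.

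Other genes that act on translation were taken from a list of 26 regulators and cofactors, of which 24 were found in the annotation. An IDR summit was present at 13 of these 24 (54.2%, Wilson 95% interval 35.1 to 72.1), beside the 26.1% of all coding genes. The strongest was at larp (2851.52, rank 57), whose mammalian counterpart binds mRNAs with 5′ pyrimidine tracts. This summit lay 317 bp upstream of larp. It ranked 63 and 56 in replicates 1 and 3. It was followed by pelo (429.643), a ribosome rescue factor, pAbp (417.326), the poly(A)-binding protein, Thor (390.497), the 4E-binding protein that blocks eIF4E1, and bel (367.788), a DEAD-box helicase. The others were kra (294.185), Lk6 (286.845), the eIF4E kinase, HBS1 (256.127), mxt (226.13), S6k (203.552), MCTS1 (189.523), Fmr1 (185.621) and NAT1 (166.697). The summits at pAbp (481 bp) and MCTS1 (-487 bp) were just inside the window. The strongest region in the window of pAbp ranked 1933 in replicate 3 and 18742 in replicate 1. Whether these are the same region was not checked. The eIF2 kinase genes PEK and Gcn2 had no IDR summit. Genes for the cytosolic aminoacyl-tRNA synthetases, taken by their symbols, had one in 10 of 18 cases (55.6%). For the 24 and the 18 genes, shares were not weighted by TSS number and close neighbours. Whether their summits were nearer to another gene was not checked.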

How the data were processed

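ChIP-seq peak lists of 2 biological replicates were analysed. Per the labels, chromatin was sonicated to 200 to 800 bp and lists were deposited on dm6 and dm3. The dm3 lists were not used here. Which aligner and peak caller were run, and at what IDR cutoff, is not given in the sources used here. Each region carries the authors' signal value, used to rank regions within a list, and the authors' −log10 q-value, which was at its ceiling of 4.13 in 6671 of 7689 IDR peaks and was not used. The depth is unknown.

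TSSs came from the Ensembl annotation (release 115, BDGP release 6.54) and sequence from the RefSeq copy of the same assembly; all annotated genes and listed regions fit within its 6 arms. Positions are 1-based, and the summit is the start plus the offset. All annotated transcripts of a gene gave TSSs. Shares have Wilson 95% intervals for counting error only. For a replicate alone, its 7689 strongest regions stood in for the IDR list.

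Named in full were all members with an IDR summit, the germline paralogues and their counterparts. Of the summits 300 to 800 bp from a TSS, all those of the IDR list were named, but only some of those found in a single replicate list. The members and lists were chosen with earlier results of these data known. Windows of 200 and 1000 bp, whole peaks, a single TSS per gene, the upper part of the list and each replicate alone were tried. Assignment of summits to genes was tested on simulated data. Figures were drawn with matplotlib 3.10.9, and values computed in Python 3.11.15 with scipy 1.17.1, pandas 2.3.3 and numpy 2.4.6.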

Additional observations from a re-analysis of the deposited data

How the results depend on the processing

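The 21 translation factor genes with a summit (beside 26.1% of all coding genes) became 19 within 200 bp (beside 18.6% of all coding genes), 22 within 1000 bp (30.3%), 22 by the whole peak interval (28.1%), 21 with a single TSS per gene (23.6%) and 15 in the upper part of the list by signal (16.5%), and were 20 and 21 in the replicates taken alone (26.2% and 26.8%). With a summit counted for the nearest coding gene only it was 17. No share of all coding genes was computed under that rule, so the 17 cannot be set beside one. Restricted to the 31 members without another coding TSS nearby it was 8 (25.8%), beside 18.4% of all coding genes without one. The germline paralogues had 0 in the upper part of the list and 0 to 1 in the replicates alone (eIF4G2, which replicate 3 ranked below its 7689 strongest regions). Their 12.5% is 1 gene. The 13 other translation genes became 7 in the upper part of the list, where the share of all coding genes went from 26.1% to 16.5%. The 27 members with a region in both replicate lists became 15 when each list was cut to its 3844 strongest regions, as fewer regions enter in both. The median position stayed between -84.5 and -48 bp. Without read counts or a control library, a gene with no region cannot be told from one below the sensitivity of the libraries.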

Other observations

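The 2 longest translation factor genes, eIF4EHP and eIF5B, held IDR summits away from their starts. The next longest, eIF4B (15603 bp) and eIF4G1 (15419 bp), held none, and coding genes of like length were not compared. Within eIF4EHP, which spans 45884 bp, 6 further summits lay in introns, the strongest with a signal of 523.775 at rank 1499 and 9825 bp downstream of the TSS. The nearest coding TSS was that of Syx1A for 5 of these 6 and that of SMC1 for the other. Within eIF5B, which spans 32320 bp, 6 more lay in introns, the strongest with a signal of 609.99 at rank 1209. Of those 6, 4 were nearest to sty, a Ras pathway inhibitor gene, and 2 to eIF5B itself. No other translation factor gene held an IDR summit in its body beyond 500 bp of a TSS.

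The members on the X chromosome had none of the 21 summits. They were eIF2alpha, eIF2Bbeta, eIF2Bepsilon, eIF3g1, eIF4E7, eIF4H1 and eIF5, and 0 of 7 (Wilson 95% interval 0 to 35.4%) had an IDR summit, beside 26.5% of all coding genes on X. Replicate 3 listed a weak region at 3 of the 7 (42.9%), beside 53.3% of all coding genes on X, and replicate 1 at none, beside 45.8%. This grouping was made after the values were seen, and the strong Ugalt peak lies 682 bp from eIF2Bbeta.

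At eIF3c, the core scaffold subunit of eIF3, replicate 3 listed a region 4 bp upstream of the TSS with a signal of 242.797 at rank 2134. The nearest summit of replicate 1 was 1736 bp away and that of the pooled list 16100 bp away. Of the 7689 strongest regions of replicate 3, 100 overlapped no region of the pooled list, and of those of replicate 1 it was 117.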
